A study of Mus musculus with 14 samples.

Results

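Cadherins and protocadherins are described here across 14 RNA-seq libraries of mouse PiC neurons. Members were the rows of the count table whose gene name follows the Cdh or Pcdh naming pattern for cadherins and for clustered or non-clustered protocadherins, which gave 93 of 55401 genes under 92 names, because Pcdha11 stands under 2 identifiers. Each library came from a tube of 4 to 5 EGFP-labelled neurons of wild-type C57BL/6 mice, picked with a micropipette and amplified by SMART-Seq2, a full-length method for polyadenylated RNA. All mice carried AAVretro-EGFP, a virus taken up by axon terminals and carried back to the cell body, injected at 0.1 µl into PrL or MeA, so there was no group without virus. With PrL as the injected site there were 4 female and 4 male libraries (female PiC-PrL and male PiC-PrL), and with MeA 3 of each sex (female PiC-MeA and male PiC-MeA). PiC, PrL and MeA are abbreviations of the labels, and ages and the number of animals were not given in the sources used here. Nothing in the labels says that tubes came from separate animals, so p-values measure the spread between tubes, which may be technical.

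Cadherins are membrane proteins whose extracellular repeats bind calcium and adhere to the same or a related cadherin on the facing cell. Classical type I and type II cadherins tie that contact to actin through catenins, and neurons use different combinations of them when they sort into nuclei and choose synaptic partners. Protocadherins lack the catenin-binding tail. The non-clustered delta protocadherins bind weakly and signal to the cytoskeleton, whereas the clustered alpha, beta and gamma protocadherins are chosen from arrays of promoters in each neuron and give it a surface identity.

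Total counts per library ran from 6132985 to 15392217, and levels are counts scaled by library size (CPM, with the TMM factors of edgeR). The upper limit behind a count of 0, set at 3 counts, was 0.192 to 0.433 CPM. In the male PiC-MeA libraries 18964 to 20014 genes had a count, against 12479 to 14908 in the other 11 libraries. The 7 pan-neuronal markers summed to 7680 to 20944 CPM per library, although Tubb3 was at 0 in all of them. Markers of other cells were present too. Summed over 8 genes, astrocyte markers were at 263 to 396 CPM in female PiC-MeA libraries and at 1048 to 1370 CPM in male PiC-MeA libraries, and the part of such cells in any result below was not tested. The endothelial marker Cldn5 and the microglial marker P2ry12 were at 0 in every library, but other markers of these cells had counts. The 6 microglial markers summed to 47.5 to 395 CPM per library, and the 6 endothelial and mural markers to 0.378 to 139 CPM. Whether these zeros, and that of Tubb3, reflect absent RNA was not tested. In tubes of whole cells, fewer cells of a type and less RNA per cell cannot be told apart.

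The clustered protocadherins gave almost no counts. Of 58 clustered members, 57 had 0 counts in all 14 libraries, including all 22 of the beta and all 22 of the gamma cluster. The exception was Pcdha1, with 14 counts in male PiC-PrL replicate 3 and none elsewhere. Among the 35 non-clustered members only Cdh15, the M-cadherin of muscle, was at 0 throughout. In the GENCODE M21 annotation the clustered members lie on mm10 chromosome 18 between 36930184 and 37841873, where alpha and gamma members share their last exons and 3 gene models, Gm42416, Gm37013 and Gm37388, stretch over 857356 to 887460 bases from the alpha into the gamma cluster. Of the 85 annotated genes that touch this region, 84 had no count in any library, and Pcdha1 was the other.

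Position relative to other genes divided the members at 0 from the rest without exception. All 58 members at 0 had a span lying wholly inside the spans of other genes, and all 58 members so placed were at 0. Pcdha1 had 97.0% of its span inside other genes, and the 34 other members with counts had between 0% and 46.6%. Cdh15 (chromosome 8, 122847966 to 122867397) lies inside the gene model Gm20388, which spans 4434882 bases and had 36.7 to 206 CPM. The beta members have a single coding exon each as a rule, and 19 of 22 share no exonic base with another gene, yet they too were at 0. The same division held in genes outside the family. Of 1283 other protein-coding genes wholly inside the spans of others, 1194 (93.1%) were at 0 in all libraries, against 493 of 8840 (5.58%) of those partly inside and 1831 of 11682 (15.7%) of those outside. Taf7, a general transcription factor gene that lies in the protocadherin region, and Xist were also at 0. How reads in overlapping genes were assigned was not given in the sources used here. A count of 0 for a clustered protocadherin or Cdh15 is therefore no measure of its expression, and classical and delta members are compared with clustered members no further.

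**Figure D1:**
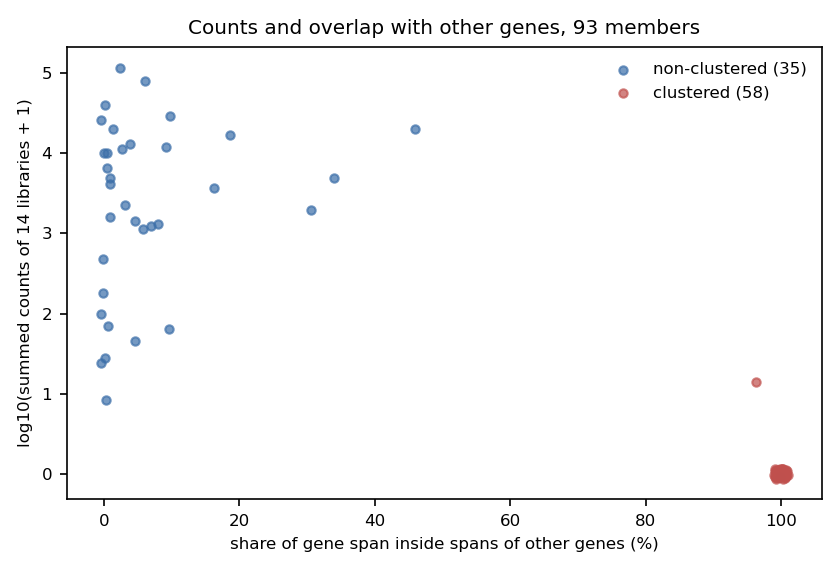
Summed counts of the 14 libraries (log10 of the count + 1, vertical axis) against the share of each gene's span that lies inside the spans of other genes (percent, horizontal axis) for 93 members, with small random offsets so that points do not hide each other. The 58 members at 100% are all at 0 counts, and Pcdha1 at 97.0% has 14.

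The delta-1 protocadherins Pcdh9 and Pcdh7 had the highest levels per exonic length. Levels are compared between genes per kilobase of exon. Pcdh9 was at 104 CPM per exonic kilobase over the 14 libraries and Pcdh7 at 38.9, followed by the type II cadherin Cdh12 at 18.7, Cdh13 at 17.7, the type II cadherins Cdh10 at 14.1 and Cdh18 at 13.6, and the delta-2 protocadherin Pcdh19 at 9.43. The other delta-1 members were far lower, Pcdh11x at 1.77 and Pcdh1 at 0.885. The highest type I cadherins were Cdh2 (N-cadherin) at 7.89 and Cdh4 (R-cadherin) at 7.85 CPM per exonic kilobase. Several of these genes are very long, up to 1550396 bases for Pcdh15, and whether intronic reads were included was not given in the sources used here. Divided by the length of the span outside other genes, the order changed. Pcdh8, a gene of 4538 bases, came first with 3.19 CPM per kilobase, then Pcdh20 with 1.16, Pcdh17 with 1.10, Pcdh7 with 1.07, Pcdh19 with 0.940 and Pcdh9 with 0.815, while Cdh12 fell back to 0.194 and Cdh18 to 0.0679. Pcdh7, Pcdh9, Pcdh19 and Cdh10 were among the top 7 by both measures. By exonic length the type II cadherin Cdh8 had 8.68 CPM per kilobase, Pcdh15 7.83 and Pcdh17 6.57. Low levels were found for Cdh23, the hair cell partner of Pcdh15, with 0.402, Cdh1 (E-cadherin) with 0.321, Cdh16 with 0.207, Cdh3 (P-cadherin) with 0.141 and Cdh26 with 0.0802, and the endothelial protocadherin Pcdh12 had the lowest of the 35 members with counts, 0.00748.

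Of the 35 members with counts, 25 reached 10 counts in some libraries but not in all, and 1 in no library. At least 10 counts in all 14 libraries were found for 9 members, which were Pcdh9, Pcdh7, Cdh13, Cdh10, Cdh12, Cdh18, Pcdh15, Cdh2 and Pcdh19. Another 5 members reached 10 counts in 13 libraries and 3 in 12. The steadiest tested member was Cdh10, at 78.3, 145, 164 and 172 CPM in female PiC-PrL, 82.0, 164, 199 and 215 in male PiC-PrL, 77.5, 130.2 and 164 in female PiC-MeA and 83.4, 145 and 169 in male PiC-MeA libraries. Its coefficient of variation over the 14 libraries was 32.1%, and the ranges of all 4 groups overlapped. Pcdh7 followed with 53.4%, Pcdh19 with 56.8% and Pcdh9 with 57.97%. At the other end, Cdh19, Cdh1 and Pcdh20 had coefficients of 282%, 281% and 244%, since a few tubes held nearly all of their counts.

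**Figure D2:**
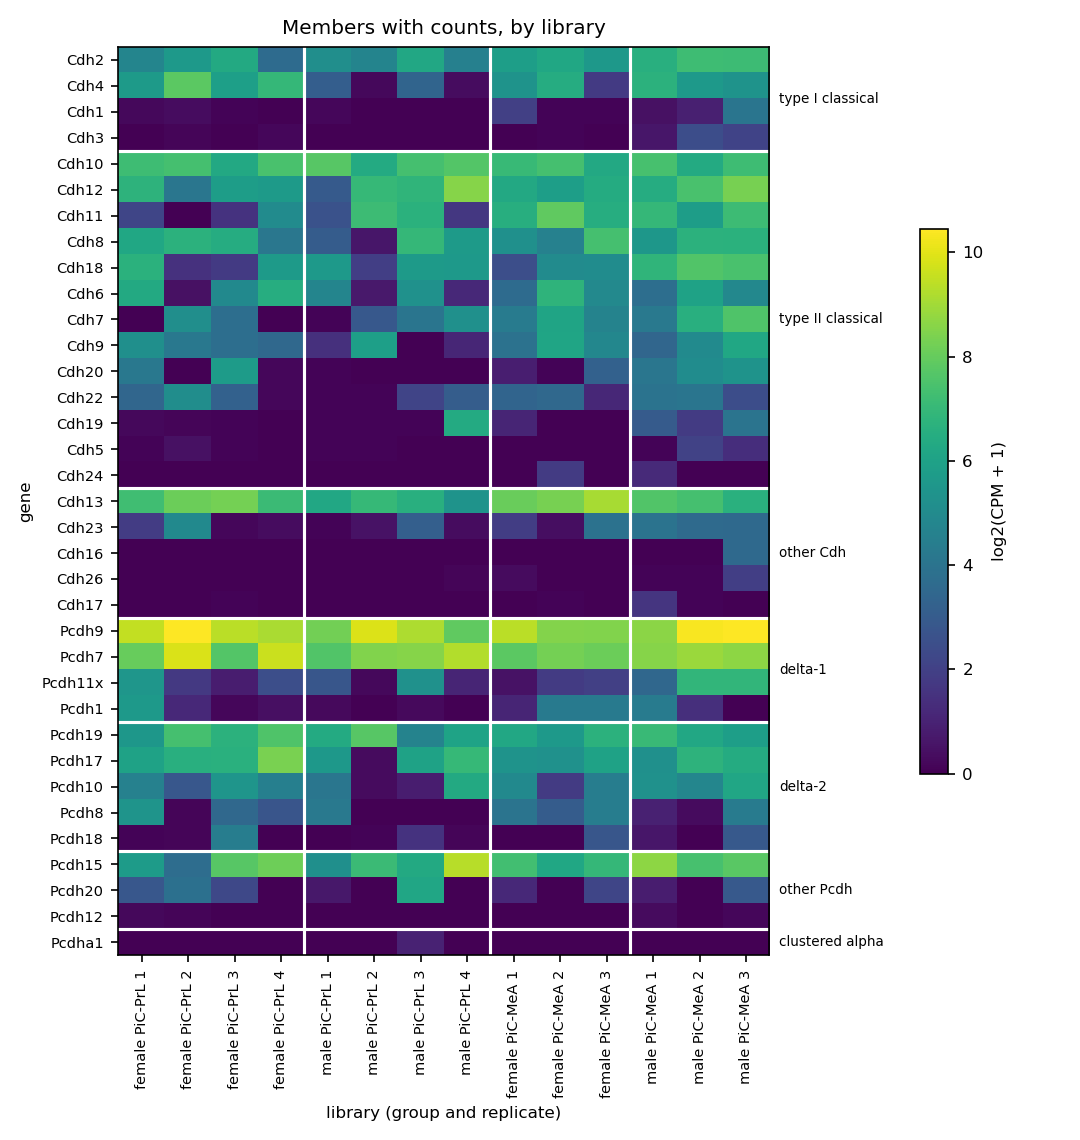
Level as log2(CPM + 1), by colour, of the 35 members with counts (rows, ordered by class and mean level) in the 14 libraries (columns, by group and replicate). Pcdh9 and Pcdh7 are high in every library, whereas Cdh20, Cdh19 and Pcdh20 are near 0 in many.

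Summed over all members, the family took 2676 ± 695 CPM (SD, n = 4) in female and 2001 ± 634 (n = 4) in male PiC-PrL neurons, and 2073 ± 87.2 (n = 3) in female and 3307 ± 769 (n = 3) in male PiC-MeA neurons. Delta-1 members made up 30.4% to 65.2% of this sum in every library and type II cadherins 10.4% to 36.7%. Type I cadherins summed to 76.3 to 274 CPM in female PiC-PrL and to 22.7 to 86.1 CPM in male PiC-PrL libraries, and to 49.1 to 161 CPM in female and 201 to 203 CPM in male PiC-MeA libraries. The number of members with at least 10 counts was 18 to 23 in female PiC-PrL, 12 to 22 in male PiC-PrL, 22 to 25 in female PiC-MeA and 26 to 30 in male PiC-MeA libraries. The last group was also the group with the most genes detected of any kind, and that part in its count was not tested. Of the 13 type II cadherins, 12 reached 10 counts in each male PiC-MeA library and 6 to 11 in the others. Type I cadherins did so for 2 to 4 of 5 members in male PiC-MeA libraries and for 1 to 3 in the others. Differences between classes were not tested.

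**Figure D3:**
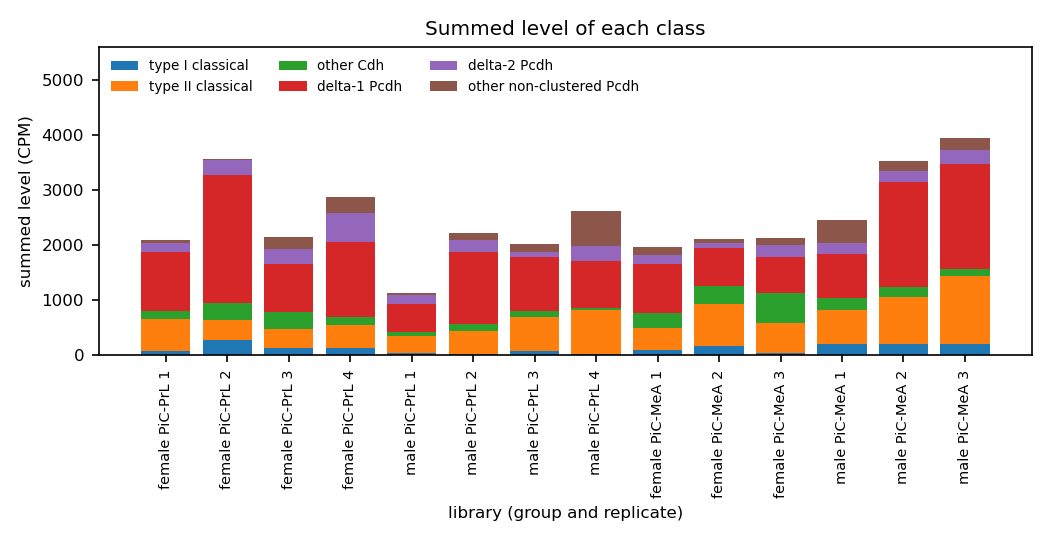
Summed level (CPM) of the 6 classes with tested members, stacked, in each of the 14 libraries. Delta-1 protocadherins (red) are the largest part in most libraries, and the lowest total is 1125 CPM in male PiC-PrL replicate 1 and the highest 3945 CPM in male PiC-MeA replicate 3.

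The count filter of the fit left 27 members with enough counts to be tested, and these are not all members. They were 3 type I and 11 type II cadherins, Cdh13 and Cdh23, 4 delta-1 and 5 delta-2 protocadherins, Pcdh15 and Pcdh20. The other 8 with counts had between 7 and 89 counts in all libraries together. Among them were the vascular cadherin Cdh5 with 59 counts, Cdh3 with 89, Cdh24 with 50, and the kidney cadherin Cdh16, whose 76 counts were all in male PiC-MeA replicate 3.

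The sexes were first compared in PiC-PrL neurons, with 4 male and 4 female libraries. No member passed an adjusted p of 0.05 in the edgeR quasi-likelihood test with Benjamini-Hochberg adjustment over all 14599 genes, where 0% of all genes passed. At an unadjusted p of 0.05 there were 5 of 27 members, against 14.3% of all genes, and the DESeq2 Wald test called 4 members, against 7.59% of all genes with an adjusted p, and limma voom 0, against 0.0548%. The 5 were Cdh13, Cdh4, Cdh20 and Pcdh1, which had lower values in males (8.78% of all genes), and Cdh19, which had higher values (5.56% of all genes). The male and female libraries did not overlap for Cdh13 and Cdh4, both lower in males, against 2.02% of all genes that were lower in males in this way, and 0 members were higher without overlap, against 1.49%. The 9 inhibitory neuron markers summed to 531 to 5311 CPM in female and to 243 to 515 CPM in male PiC-PrL libraries, and their part in these differences was not tested.

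Cdh13 (T-cadherin, chromosome 8, 118283733 to 119324921) is an atypical cadherin held in the membrane by a lipid anchor, with no cytoplasmic tail. Its level in PiC-PrL neurons was 139, 151, 273 and 311 CPM in the 4 female libraries and 40.2, 75.7, 94.7 and 126 CPM in the 4 male libraries. Every male library thus lay below every female library (log2 -1.38 ± 0.45, male minus female, edgeR adjusted p = 0.283). In PiC-MeA neurons it was at 265, 313 and 535 CPM in females and at 97.3, 163 and 198 CPM in males, again without overlap (log2 -1.28 ± 0.52, edgeR adjusted p = 0.339). These 2 sex comparisons share no library. Of 14599 genes, 15 (0.103%) were lower in males without overlap in both projections, and Cdh13 was the member among them. In the single comparisons 2.02% of all genes were lower in this way in PiC-PrL and 8.76% in PiC-MeA. The direction given here is the one that Cdh13 shows, and the other directions are not given. These shares describe all genes and are not a test of Cdh13. Averaged over projections the difference was -1.33 ± 0.35 on the log2 scale (unadjusted p = 0.00130, edgeR adjusted p = 0.275), and it lay between -1.49 and -1.21 when any library was left out. DESeq2 gave adjusted p = 0.00917 for the averaged difference and 0.0468 in PiC-PrL, and limma voom gave 0.0400 in PiC-MeA. These were the lowest of all alternatives run, in which adjusted p went up to 1.000 for the averaged difference, 0.999 in PiC-PrL and 1.000 in PiC-MeA. The sex differences in the 2 projections differed by 0.10 ± 0.68, less than the error. Within each sex Cdh13 had a positive fitted difference of PiC-MeA against PiC-PrL neurons, of 0.76 ± 0.48 in females and 0.86 ± 0.48 in males, and the groups overlapped.

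The type I cadherin Cdh4 (R-cadherin, chromosome 2, 179442431 to 179899373) stood at 50.1, 58.6, 123 and 224 CPM in female PiC-PrL and at 0.163, 0.277, 7.69 and 9.38 CPM in male PiC-PrL libraries. All 4 male values were lower (log2 -4.69 ± 1.34, edgeR adjusted p = 0.283, DESeq2 adjusted p = 0.000755, the range over all alternatives being 0.000755 to 0.999). In PiC-MeA neurons the libraries overlapped, with 2.38, 40.9 and 86.9 CPM in females and 39.99, 50.04 and 104 CPM in males (log2 0.58 ± 1.33). The male PiC-PrL libraries therefore had the lowest group mean, and the difference of male PiC-MeA from male PiC-PrL libraries was 3.88 ± 1.33 on the log2 scale (edgeR adjusted p = 0.0956). The difference between the sex differences was 5.27 ± 1.87 (edgeR adjusted p = 0.180, DESeq2 adjusted p = 0.0228, and 0.0228 to 1.000 over all alternatives).

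Cdh20, a type II cadherin gene (chromosome 1, 104768529 to 104995481), also had its lowest group mean in male PiC-PrL libraries. Its values there overlapped with those of female PiC-PrL libraries. It had 1, 0, 0 and 0 counts in the male PiC-PrL tubes. In the male PiC-MeA tubes it had 208, 411 and 279, so that all 3 lay above. Per effective library total, the summed counts were 1494-fold higher in male PiC-MeA neurons, with a 95% exact interval for counting error of 267 to 59077. The fitted difference was 10.11 ± 2.84 on the log2 scale (edgeR adjusted p = 0.0790), and it passed in DESeq2 (adjusted p = 6.49e-05), in limma voom (0.00126) and when edgeR was fitted on the male libraries alone (0.0452). In that last fit 987 of 13073 genes passed. Over all alternatives its adjusted p ran from 6.49e-05 to 1.000, and with a covariate for the number of genes detected the fitted value turned to -12.1 ± 10.8. Female PiC-PrL libraries were divided, with 212 and 727 counts in replicates 1 and 3 and 0 and 2 in replicates 2 and 4. Female PiC-MeA libraries had 10, 1 and 134 counts. With 4 to 5 cells a tube, the number of cells that carried these counts is not known.

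The remaining members at an unadjusted p of 0.05 in PiC-PrL neurons rested on single tubes. Cdh19, a type II cadherin of glial and Schwann cell lineages, had 887 counts in male PiC-PrL replicate 4 and at most 2 in any other PiC-PrL library, and without that library its log2 difference was -0.15 in place of 7.83. The same library had the highest level of Pcdh15, a cadherin of sensory hair cell links, with 645 CPM against 35.4 to 137 CPM in the other male PiC-PrL libraries. In this tube the oligodendrocyte marker Mbp was at 98.1 CPM, Mobp at 44.1, Mag at 0.277 and Mog at 0. Of the 5 precursor markers Olig1 was at 2.68 CPM and the other 4 (Pdgfra, Cspg4, Olig2 and Sox10) at 0, and their sum was 0.163 to 43.8 CPM over the male PiC-PrL libraries. The part of glial RNA in the Cdh19 counts was not tested. Pcdh1, a delta-1 protocadherin, had 47.8 CPM in female PiC-PrL replicate 1 and at most 1.29 CPM in the other 7 PiC-PrL libraries.

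The same comparison in PiC-MeA neurons had 3 male and 3 female libraries. No member passed in edgeR, where 0% of all genes passed, and DESeq2 and limma voom called 1 member each, against 5.68% and 12.1% of all genes. At an unadjusted p of 0.05 there were 3 of 27 members, against 12.4% of all genes. Besides Cdh13 these were the delta-1 protocadherins Pcdh11x and Pcdh9, both with higher values in males (10.3% of all genes), while Cdh13 had lower ones (2.05%). Pcdh11x (chromosome X, 120290259 to 120910619) stood at 10.1, 116 and 117 CPM in males and at 0.406, 2.57 and 2.96 CPM in females (log2 5.35 ± 2.18, edgeR adjusted p = 0.339, DESeq2 adjusted p = 0.0164, and 0.0164 to 1.000 over all alternatives), without overlap, and with the covariate for genes detected its log2 value turned to -4.89. Pcdh9 (chromosome 14, 93013410 to 93890679) stood at 395, 1318 and 1399.7 CPM in males and at 349, 361 and 659 CPM in females (log2 1.18 ± 0.54, edgeR adjusted p = 0.383), with male replicate 1 inside the female range. In PiC-PrL neurons it was at 560.04, 669, 711 and 1401 CPM in females and at 236, 296, 569 and 947 CPM in males, and the groups overlapped. The sex difference of Pcdh9 in PiC-MeA exceeded that in PiC-PrL by 1.89 ± 0.72 (edgeR adjusted p = 0.209).

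In PiC-MeA neurons 8 members had higher values in all male than in all female libraries, against 17.5% of all genes. They were the type I cadherin Cdh2, the type II cadherins Cdh12, Cdh18, Cdh19 and Cdh20, the delta-1 protocadherins Pcdh7 and Pcdh11x, and Pcdh15. Cdh18 had 114, 176 and 195 CPM in males and 4.63, 31.7 and 33.1 CPM in females (log2 2.80 ± 1.38, edgeR adjusted p = 0.428). With that covariate its log2 value was -2.63 ± 5.57, less than the error. Cdh2 (N-cadherin), which holds synaptic junctions together, had 96.0, 144 and 146 CPM in males and 46.6, 57.2 and 73.6 CPM in females. Cdh13 was the member with lower values in all 3 male libraries, against 8.76% of all genes. Each of these comparisons rests on the male PiC-MeA libraries, which had more genes detected and more astrocyte marker RNA than the female ones. Inhibitory neuron markers differed too, at 246 to 322 CPM in female and 378 to 1918 CPM in male PiC-MeA libraries. Endothelial and mural markers summed to 0.378 to 2.44 and 19.2 to 87.2 CPM in the same order. The other marker sums overlapped between the sexes, and the part of these differences in the members' values was not tested.

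**Figure D4:**
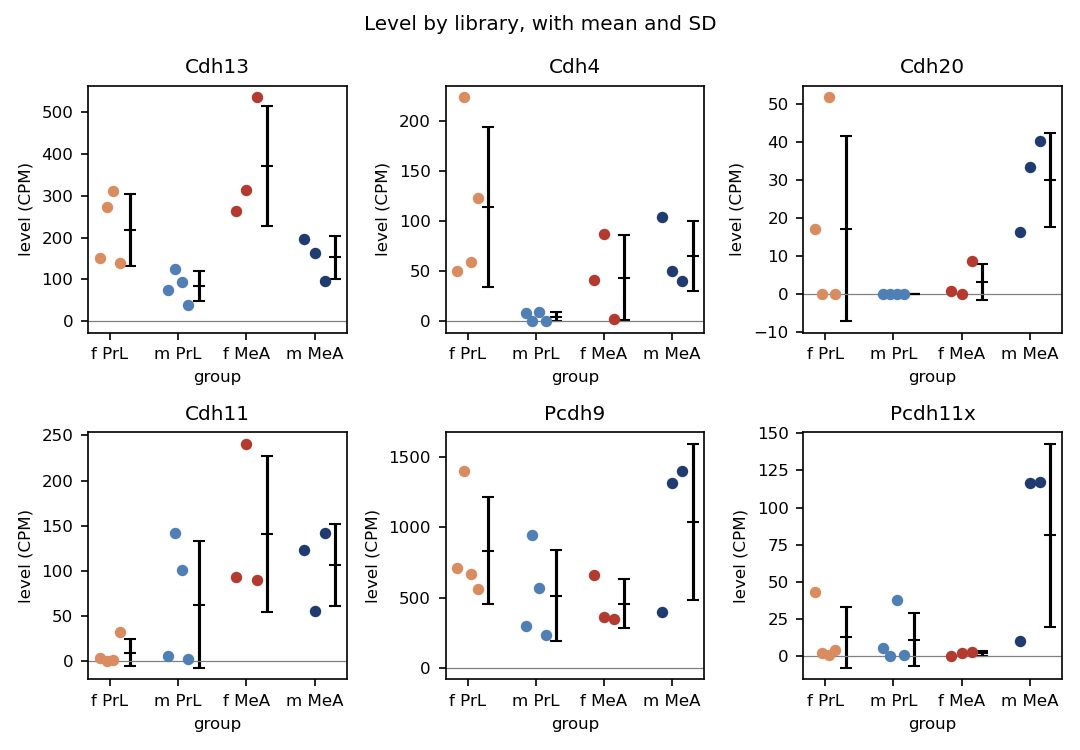
Level (CPM, linear axis) of 6 members in each library, by group (f, female; m, male), with the mean and SD beside the points (n = 4 for PrL, n = 3 for MeA). For Cdh13 all male points lie below the female points of the same projection, and for Cdh4 and Cdh20 the male PiC-PrL points lie near 0. For Cdh11 the female PiC-PrL points have the lowest mean and overlap with the male PiC-PrL points.

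Projections were compared within each sex. In females no member passed in edgeR, where 0% of all genes passed, and DESeq2 and limma voom also called 0, against 4.59% and 0.212%. The 1 member at an unadjusted p of 0.05 had higher values in PiC-MeA neurons, against 11.1% of all genes in either direction, 5.78% higher and 5.31% lower. It was Cdh11 (OB-cadherin, type II, chromosome 8, 102632095 to 102785642). It stood at 0, 1.85, 3.54 and 32.0 CPM in PiC-PrL and at 89.8, 93.2 and 241 CPM in PiC-MeA libraries of females, without overlap (log2 3.92 ± 1.51, edgeR adjusted p = 0.403), against 4.47% of all genes that were higher without overlap, and 0 members were lower without overlap, against 3.97%. In males it was at 2.22, 5.26, 101 and 142 CPM in PiC-PrL and at 55.6, 123 and 142 CPM in PiC-MeA libraries, with 2 PiC-PrL tubes high and 2 low (log2 0.77 ± 1.40). Averaged over the sexes the difference was 2.34 ± 1.01 (edgeR adjusted p = 0.226), and limma voom gave adjusted p = 0.0365, within a range of 0.0365 to 1.000 over all alternatives. Pcdh7, a delta-1 protocadherin, had the smallest p among members with negative values in females, at 198, 262, 792 and 925 CPM in PiC-PrL and 225, 277 and 311 CPM in PiC-MeA (log2 -1.01 ± 0.50, edgeR adjusted p = 0.468), where 1 PiC-PrL tube lay below and 1 within the PiC-MeA range. Other markers moved with this comparison too. Astrocyte markers summed to 691 to 1185 CPM in female PiC-PrL and 263 to 396 CPM in female PiC-MeA libraries, and inhibitory neuron markers to 531 to 5311 and 246 to 322 CPM. Pan-neuronal markers summed to 11236 to 16994 and 8306 to 11112 CPM in the same order. All of these sums were without overlap, and their part was not tested.

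In males 0 of 27 members passed in edgeR, against 0.603% of all genes, while DESeq2 called 3 members and limma voom 2, against 14.8% and 17.9%. At an unadjusted p of 0.05 there were 5 members, against 22.2% of all genes, and all 5 had higher values in PiC-MeA (17.3% of all genes) and 0 lower (4.89%). They were Cdh20 and Cdh4, described above, with Cdh1, Cdh2 and Pcdh1. Cdh1, the epithelial cadherin, had 2, 0, 0 and 0 counts in male PiC-PrL and 5, 11 and 108 in male PiC-MeA libraries (log2 7.01 ± 2.30, edgeR adjusted p = 0.0901), and the summed counts were 103-fold higher with a 95% exact interval of 28.0 to 861. This value rested on male PiC-MeA replicate 3. Without that library the ratio, computed after seeing the data, was 17-fold (4.00 to 152) and the fitted value 3.85. With all libraries and the covariate for genes detected the fitted value turned to -3.34 ± 8.01, less than the error. For Cdh2 the male PiC-PrL libraries had 22.4, 25.5, 34.7 and 76.7 CPM and lay below all male PiC-MeA libraries (log2 1.69 ± 0.79, edgeR adjusted p = 0.217). In all, 6 members were higher in male PiC-MeA than in male PiC-PrL libraries without overlap, against 19.2% of all genes, and 0 were lower, against 6.23%. Cdh18 and Cdh23 were the other members of this kind. The same male groups differed without overlap in pan-neuronal markers, which summed to 13075 to 20944 CPM in PiC-PrL and 7680 to 9882 CPM in PiC-MeA libraries. Red blood cell markers summed to 129 to 1238 and 36.1 to 38.7 CPM, and 12479 to 13683 against 18964 to 20014 genes had a count. The part of these differences in the members' values was not tested.

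The averaged contrasts gave no member in edgeR either. For sex averaged over projections edgeR called 0 of 27 members against 0.0137% of all genes, with 5 members at an unadjusted p of 0.05 against 10.7%, 2 higher (7.6%) and 3 lower (3.06%) in males, and DESeq2 called Cdh13 and Cdh19, against 4.62%, and limma voom 0 members, against 0.0274%. For projection averaged over sexes edgeR called 0 members against 0.822%, DESeq2 called Cdh1 (adjusted p = 0.0191, and 0.0191 to 1.000 over all alternatives) against 10.9% of all genes, and limma voom called Cdh11 against 8.75%. There were 4 members at an unadjusted p of 0.05 in edgeR against 17.4%, namely Cdh1, Cdh20, Cdh13 and Cdh11, all with higher values in PiC-MeA (12.1% higher and 5.27% lower over all genes). The smallest edgeR adjusted p there was 0.0725 for Cdh1 (log2 4.97 ± 1.49), and with a covariate for the number of genes detected its value was -0.68 ± 2.63. For the difference between the sex differences 0 members passed against 0% of all genes, and Cdh20, Cdh4, Pcdh9 and Pcdh11x were at an unadjusted p of 0.05, against 15.6% of all genes, each with the more positive male minus female value in PiC-MeA (11.8% of all genes, and 3.75% the other way). DESeq2 called Cdh20 and Cdh4 in this contrast, against 8.94% of all genes, and limma voom called Cdh20, against 4.99%.

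**Figure D5:**
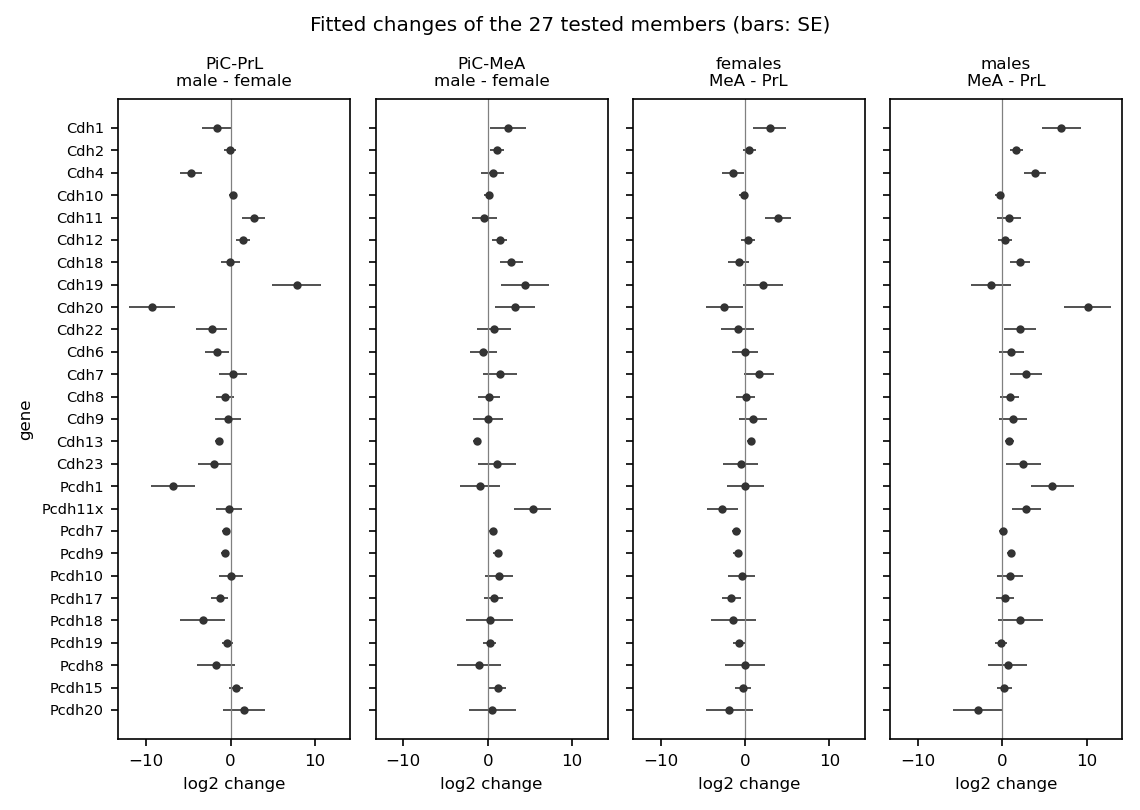
Fitted log2 changes with SE (bars) of the 27 tested members from the edgeR fit, for sex within each projection (male minus female) and projection within each sex (MeA minus PrL), members grouped by class. Cdh13 lies left of 0 in both sex panels with short bars, and the longest bars belong to members near 0 in a group, such as Cdh20, Pcdh1 and Cdh19.

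The members' signs differed between contrasts. Their median fitted change was -0.51 for sex in PiC-PrL (all genes -0.02) and 0.68 for sex in PiC-MeA (all genes 0.12). It was -0.25 for projection in females (all genes -0.06) and 1.02 in males (all genes 0.16). Positive values were found for 8 of 27 members, 22, 11 and 23 in that order, against 48.7%, 53.6%, 47.5% and 53.4% of all genes. Contrasts that share a group are not independent. Members with a span of at least 400 kilobases were positive in 7 of 8 cases for sex in PiC-MeA (median 1.17) and in 8 of 8 for projection in males (median 0.94), and shorter members in 15 of 19 cases in both contrasts (medians 0.56 and 1.09). When each library's trend of log2 counts with gene span was removed, the 4 medians became -0.26, 0.10, 0.02 and 0.34, against -0.03, 0.11, -0.05 and 0.16 for all genes. The value for sex in PiC-MeA thus came to that of all genes, while those for sex in PiC-PrL and projection in males stayed further from it. By class, delta-1 members had negative values in 4 of 4 cases for sex in PiC-PrL and positive ones in 4 of 4 for projection in males. The 3 tested type I cadherins, Cdh13 and Cdh23 had the same signs in these 2 contrasts, which share the male PiC-PrL group.

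The X-linked delta-2 protocadherin Pcdh19 (chromosome X, 133582860 to 133688987), a gene of an epilepsy that affects females, had values that overlapped between all groups. It stood at 45.5, 105, 165 and 187 CPM in female PiC-PrL, 24.5, 66.5, 82.1 and 210.1 in male PiC-PrL, 48.2, 76.9 and 103 in female PiC-MeA and 57.5, 75.6 and 134 CPM in male PiC-MeA libraries. Its log2 sex difference was -0.39 ± 0.66 in PiC-PrL and 0.23 ± 0.76 in PiC-MeA (edgeR adjusted p = 0.895 and 1.000), which is less than the error in both. The other delta-2 members passed in none of the tests run. Pcdh17 was at 97.4 CPM or less in 3 female PiC-PrL libraries and at 324 CPM in replicate 4. Pcdh10, which binds the WAVE actin regulators, ran from 0.244 to 79.4 CPM in male PiC-PrL libraries, and Pcdh8, a gene induced by neuronal activity, had 0 counts in 3 of 4 of them.

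Among 49 tested genes that work with or resemble cadherins, edgeR called 0 in each of the 7 contrasts, with the shares of all genes given above. DESeq2 called 1 to 6 of them per contrast, against 4.59% to 14.8% of all genes, and limma voom 0 to 5, against 0.0274% to 17.9%. The highest number in both tools was for projection in males. There DESeq2 called 6 of 48, against 14.8% of all genes, and limma voom 5 of 49, against 17.9%. Pkp4 was called by DESeq2 in 5 contrasts, and Dsc3 and Fat2 by limma voom in 4 each. Of 15 catenins and linkers 13 were tested, and 8 had negative and 5 positive values for sex in PiC-PrL, with a median of -1.06. Pkp4 (plakophilin 4) was at 105 to 261 CPM in female PiC-PrL, 40.2 to 81.6 in male PiC-PrL, 46.8 to 69.3 in female PiC-MeA and 146 to 147 CPM in male PiC-MeA libraries, and its sex differences differed by 2.73 ± 0.75 (edgeR adjusted p = 0.152). Ctnna3 (alpha-T-catenin) was at 1.66 to 23.1 CPM in male PiC-PrL and at 53.6 to 117 CPM in male PiC-MeA libraries (projection in males 3.42 ± 1.30, edgeR adjusted p = 0.121), without overlap. Ctnnd2 (delta-catenin of neurons) gave -1.06 ± 0.45 for sex in PiC-PrL (edgeR adjusted p = 0.295). Ctnnb1 (beta-catenin) was at only 0 to 24.8 CPM, and 67.8% of its exonic bases lie inside spans of other genes, so its level is uncertain. Of 26 other genes of the cadherin superfamily 13 were tested, and 10 of them had positive values for projection in males (median 3.91). Dsc3, a desmosomal cadherin, had at most 0.210 CPM in the other groups and 4.48 to 19.6 CPM in male PiC-MeA libraries (projection in males 8.98 ± 2.40, edgeR adjusted p = 0.0790). Dsc2, another desmosomal cadherin, had at most 0.185 CPM in PiC-PrL libraries and 0 to 9.15 CPM in PiC-MeA libraries (projection averaged 6.13 ± 1.65, edgeR adjusted p = 0.0564). The giant cadherin Fat4 was at 0.241 to 110 CPM in female PiC-PrL neurons and at most 0.0924 CPM in male PiC-PrL libraries (edgeR adjusted p = 0.283). Of 24 regulators and effectors of protocadherins 23 were tested. Wapl, which releases cohesin from DNA, had the smallest edgeR adjusted p among them, 0.0778 for projection averaged over sexes (log2 -1.83 ± 0.57), and Nckap1, a WAVE subunit, gave -0.79 ± 0.28 (edgeR adjusted p = 0.125).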

How the data were processed

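RNA of 14 tubes was sequenced by the authors, who deposited raw counts per gene, 1 column per library, neither pooled nor normalised. The tools listed in the submitters' processing notes, with no roles or order, are featureCounts 2.0.1, HISAT2 2.2.1, SAMtools and Trimmomatic 0.39, and the build is mm10. The annotation, the strand setting and the treatment of overlaps were not given in the sources used here. Positions and overlaps came from GENCODE M21, in which 92 of the 93 member identifiers had the same version and all matched without it. Overlap was computed between gene spans on either strand.

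The whole table of 55401 genes was filtered with filterByExpr (minimum count 10, minimum total 15), which kept 14599, and fitted with the robust quasi-likelihood test of edgeR 4.0.16 in R 4.3.3, with TMM factors, 1 mean per group and Benjamini-Hochberg adjustment over all genes tested. Sex differences are male minus female, and projection differences are PiC-MeA minus PiC-PrL. Levels are CPM, and log2 changes are given ± SE. The alternatives used DESeq2 1.42.0 and limma 3.58.1 among others. Exact intervals and floors of 3 counts cover counting error only. The scripts were tested on simulated data.

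Members, classes and gene lists were chosen with earlier results of these data known. The named members were the highest by exonic level in each class, the 4 with the smallest p per direction in each contrast, and others chosen after their values were seen; of each gene list the 2 with the smallest p were named, with Ctnnb1, Ctnnd2 and Fat4 added after their values were seen. No column belonged to other samples. Batches and dates were not given in the sources used here.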

Additional observations from a re-analysis of the deposited data

Results flagged for a closer look

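In the groups of 4 libraries, 17 of 54 combinations of a tested member and a group held 1 library far from the other 3, in 14 members. The critical value used is nominally met by chance in about 1 in 20 groups of normally distributed values. Over all 14599 tested genes 30.8% of such combinations met it, so the share among members was near that of all genes. In male PiC-PrL replicate 1 these were Pcdh8 with 17.9 CPM, where the others had 0, and Cdh20 and Cdh1, where 0.0641 and 0.128 CPM stand for 1 and 2 counts. In replicate 2 they were Cdh9 with 58.7 CPM against at most 1.73, and Cdh18, the only low one, with 2.85 CPM against at least 49.0. In replicate 3 they were Pcdh20 with 71.4 CPM against at most 0.577, Pcdh11x with 37.9 against at most 5.96, Cdh23 with 7.85 against at most 0.407 and Pcdh18 with 1.88 against at most 0.0924. In replicate 4 they were Cdh19 with 81.9 CPM against at most 0.0815 and Pcdh15 with 645 against at most 137.

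In female PiC-PrL neurons replicate 1 stood apart for Pcdh1 with 47.8 CPM against at most 1.29 and for Pcdh11x with 43.5 against at most 4.63. Replicate 2 did so for Cdh23 with 29.8 CPM against at most 2.57, replicate 3 for Pcdh18 with 20.4 against at most 0.0921, and replicate 4 for Pcdh17 with 324 against at most 97.4 and for Cdh11 with 32.0 against at most 3.54. Groups of 3 were not examined in this way.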

How the results depend on the processing

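Among 56 changes of named members, 28 kept 1 sign in every alternative run and 28 had the other sign in at least 1. The depth and the tubes of 4 to 5 cells limit members near 0 most: their fitted values depend on single libraries. With DESeq2 the members called were 4 for sex in PiC-PrL, 1 for sex in PiC-MeA, 0 for projection in females, 3 for projection in males, 2 for sex averaged, 1 for projection averaged and 2 for the difference between the sex differences. Limma voom called 0, 1, 0, 2, 0, 1 and 1 in that order. EdgeR on the compared groups alone called 1 for projection in males, where 987 of 13073 genes passed. Leaving out any library gave 0 to 0 called members in all 7 contrasts, as did DESeq2 size factors, both other filters, the span correction and the covariate. Without the male PiC-MeA group, added after seeing the data, 0 members were called for sex in PiC-PrL and projection in females.

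Deviations of same-numbered libraries had correlations of -0.0388 to 0.0407 over 19 pairs. Whether same-numbered libraries share a batch or an animal was not tested. The replicate block called 0 members in each contrast, and it turned Cdh19 in males (5.73) and in the difference between the sex differences (4.52), Pcdh20 in the latter (3.66), Pcdh17 in averaged projection (0.16) and Pcdh19 in males (0.14).

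With a covariate for the number of genes detected, which moves with the male PiC-MeA group, 19 changes took the other sign. These turned changes had large SEs, so their signs are uncertain. For projection in males they were Cdh1 -3.34, Cdh10 1.20, Cdh19 14.5, Cdh20 -12.1 and Pcdh19 2.23; for projection averaged Cdh1 -0.68, Cdh20 -8.43, Pcdh19 0.85 and Pcdh7 1.92; for sex in PiC-MeA Cdh18 -2.63 and Pcdh11x -4.89; for sex averaged Cdh18 -0.61 and Pcdh11x -1.19; for sex in PiC-PrL Pcdh15 -0.78; and for the difference between the sex differences Cdh10 1.32, Cdh11 4.62, Cdh19 11.7, Cdh20 -7.30 and Pcdh11x -7.42. Limma voom turned Cdh12 (-0.085) and Pcdh15 (-0.079) for sex in PiC-PrL, Cdh6 (0.21) for sex in PiC-MeA, Cdh19 (3.61) and Pcdh19 (0.33) in males, Pcdh17 (0.28) and Pcdh7 (0.017) for projection averaged, and Cdh19 (3.28) and Pcdh20 (0.72) for the difference between the sex differences. The span correction turned Pcdh20 in that difference (0.39) and Pcdh8 for sex in PiC-MeA (0.10), and the filter of 10 counts in 7 libraries turned Cdh10 in that difference (0.061). The cause was not tested. Among the changes turned by the covariate for genes detected, the SE was larger than the value except for Cdh20 in males (SE 10.8) and averaged projection of Cdh20 (6.25) and Pcdh7 (1.39). The edgeR unadjusted p of these exceptions was 0.279, 0.196 and 0.186.

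Leaving out each library turned 11 changes. Ranges were -0.72 to 3.58 for Cdh1 in females, -0.15 to 8.37 for Cdh19 and -0.74 to 1.29 for Pcdh15 in PiC-PrL, both low without male PiC-PrL replicate 4, and -1.40 to 0.68 for Cdh6 in PiC-MeA. In males they were -2.12 to 6.66 for Cdh19, -0.64 to 0.62 for Pcdh19 and -5.52 to 3.56 for Pcdh20. Averaged projection gave -3.68 to 0.86 for Pcdh20. The difference between the sex differences gave -0.53 to 0.13 for Cdh10, -4.25 to 4.56 for Cdh19 and -3.69 to 5.395 for Pcdh20.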
